A study of Mus musculus with 36 samples.

Results

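The genes described here are *Sost*, which encodes sclerostin, the 6 other secreted Wnt antagonists *Dkk1*, *Wif1*, *Sfrp1*, *Sfrp2*, *Sfrp4* and *Frzb*, and the 3 receptors *Lrp4*, *Lrp5* and *Lrp6*. They were chosen by symbol as a named set of the pathway, with earlier results of these data known, and all 10 were found among the 56246 genes of the table. Of these, 9 passed the filter on low values together with 15933 genes in all, and *Frzb* did not. They were followed in bulk RNA sequencing of mouse tibia taken at 6 months of age, after removal of the epiphyses and marrow. The study set out to learn how base editing changes bone in mice that model Hutchinson-Gilford progeria, a premature aging disorder caused by an abnormal form of lamin A.

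The groups were 12 wild-type mice that were not treated (wild-type), 12 *LMNA* G/G mice given saline by retro-orbital injection at postnatal day 14 (saline), and 12 *LMNA* G/G mice given the adenine base editor by the same route at day 14 (ABE). *LMNA* G/G mice carry 2 copies of a human *LMNA* transgene with the progeria mutation in addition to their own mouse *Lmna* genes. The editor, an enzyme that converts A to G at a targeted base, was split over a pair of AAV9 vectors and is directed at the human transgene. Each group held 6 males and 6 females. Saline and ABE mice share genotype, route and day of injection, whereas wild-type mice differ from both in genotype and in having received no injection, so that injection and genotype cannot be told apart. No group received vectors without the editor, so that between ABE and saline mice editing and exposure to the vectors cannot be told apart either. The labels name no litter, extraction batch or sequencing run. A few *LMNA* G/G titles hold the letters WT inside the animal number, and these libraries stand in the groups that their genotype and treatment labels give.

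Wnt ligands bind a Frizzled receptor together with LRP5 or LRP6 and stabilize β-catenin, which drives bone formation by osteoblasts. Sclerostin, made mainly by osteocytes, and DKK1 block the pathway at LRP5 and LRP6, LRP4 anchors sclerostin and aids its action, and WIF1 and the SFRP family, to which FRZB belongs, bind the Wnt ligands themselves. Loss of sclerostin raises bone mass in humans and mice, and loss of LRP5 lowers it.

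Values are TPM, a length-corrected share of each library's transcripts, that were divided by a factor for each library, so that the median gene had the same level in every library (scaled TPM). Libraries held 48064068 to 116206662 reads on genes. Very short genes, no longer than the stretch that the deposited TPM subtracts from gene length, took between 84.7% and 96.6% of the deposited TPM, which left different shares for longer genes, and 1 library, ABE replicate 1 (a female), stood apart with the lowest factor of 0.217 against up to 1.56 elsewhere. Markers of the labelled tissue were present: the 9 osteocyte genes summed to between 10.6 and 42.4 scaled TPM in wild-type, 114 to 313 in saline and 103 to 225 in ABE libraries. Comparisons were made with limma on log2(scaled TPM + 0.5) and a term for sex, the Benjamini-Hochberg adjustment ran over all genes tested, and a gene is called where the adjusted p is below 0.05. Fold changes are on that log2 scale with the standard error (SE), and understate the change of low genes.

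*Sost* had the largest difference among the 10 genes. *Sost* (ENSMUSG00000001494.6) lies on chromosome 11 from 101962458 to 101967015 on the minus strand of GRCm38. Its level ranged from 2.61 to 15.9 scaled TPM in wild-type libraries with a median of 6.89, from 67.3 to 200.3 in saline libraries with a median of 116, and from 81.9 to 142 in ABE libraries with a median of 123. The highest wild-type library was thus below the lowest library of either *LMNA* G/G group. Means were 8.31 ± 4.97 (SD, n = 12) in wild-type, 123 ± 44.9 in saline and 114 ± 23.0 in ABE mice. The log2 fold change was 3.97 (SE 0.228, limma adjusted p = 1.49e-14) for saline versus wild-type and 3.91 (SE 0.228, limma adjusted p = 9.71e-15) for ABE versus wild-type. The gene was measured deeply, with 1238 to 8082 reads in wild-type libraries and 36312 to 147298 in saline libraries. For ABE versus saline the difference was -0.05, with a 95% interval of -0.52 to 0.41 (limma adjusted p = 0.862), so that a fall or rise beyond about these bounds was not seen, whereas smaller ones could not be told from none.

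*Dkk1* moved in the same direction. *Dkk1* (ENSMUSG00000024868.8, chromosome 19 from 30545863 to 30549665, minus strand) ranged from 0.388 to 2.30 scaled TPM in wild-type with a median of 0.696, from 2.54 to 7.52 in saline with a median of 5.19, and from 3.24 to 6.47 in ABE with a median of 4.30. Here too the highest wild-type library lay below every library of the other groups, although by a small margin for saline. Mean levels were 0.900 ± 0.527, 5.28 ± 1.26 and 4.60 ± 1.11 scaled TPM (SD, n = 12). The log2 fold change was 2.08 (SE 0.156, limma adjusted p = 2.27e-12) for saline versus wild-type, 1.91 (SE 0.156, limma adjusted p = 1.11e-11) for ABE versus wild-type and -0.17 (95% interval -0.49 to 0.14, limma adjusted p = 0.366) for ABE versus saline. *Sost* and *Dkk1* were the 2 members whose saline libraries all lay above the wild-type libraries, against 3.06% of all genes tested, and they were also the 2 without overlap for ABE versus wild-type, against 4.14% of all genes.

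Because these genes differed most from wild-type, the sequence next to their start sites is shown. It covers the 250 bases before the *Sost* start (chr11:101967016-101967265, minus strand) and, for *Dkk1*, the 81 bases before the start in GENCODE (chr19:30549666-30549746, minus strand), both from RefSeq's GRCm38.p6 table. Capitals mark the motif matches.
Sost: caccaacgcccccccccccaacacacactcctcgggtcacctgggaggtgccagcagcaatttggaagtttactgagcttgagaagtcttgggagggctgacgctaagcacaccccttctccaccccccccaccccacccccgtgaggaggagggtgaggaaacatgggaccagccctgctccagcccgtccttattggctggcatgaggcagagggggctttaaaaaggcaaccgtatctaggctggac
Dkk1: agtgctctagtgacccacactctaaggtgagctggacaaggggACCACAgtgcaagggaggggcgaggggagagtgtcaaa
Promoter windows of 250 bases were held by the table for 5 of the 10 genes: *Sost*, *Dkk1*, *Wif1*, *Sfrp2* and *Frzb*. They were searched on both strands for the TATA box (TATAAA), the TCF/LEF motif of β-catenin's partners (CTTTGA), the RUNX motif (TGTGGT), the GC box (GGGCGG) and the MEF2 motif by its consensus. The *Sost* window held none of the 5 motifs in these spellings. The *Dkk1* window, counted from the RefSeq start, held a RUNX match from 207 to 202 bases before the start, which is the one in capitals, TCF/LEF matches from 174 to 169 and from 117 to 112 bases before it and a TATA box from 54 to 49 bases before it. Of all 32851 windows of this length, 14.05% held a RUNX, 13.8% a TCF/LEF and 12.4% a TATA match, 32.7% held a GC box and 2.92% a MEF2 match. No matches overlapped in these 5 windows. They are matches of letters and say nothing on whether a factor binds there.

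**Figure D1:**
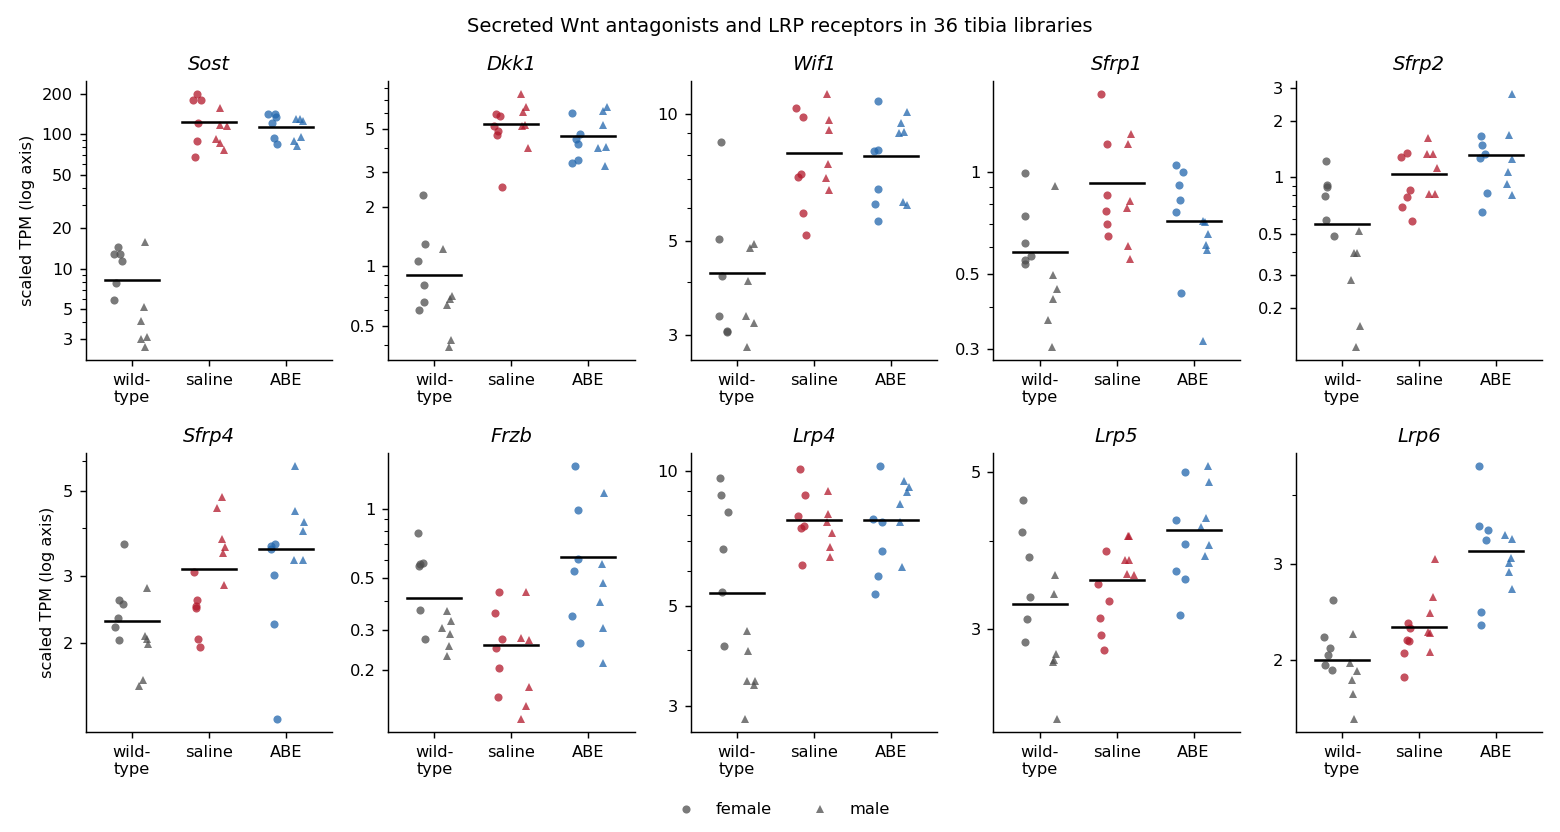
Scaled TPM (log axis, own scale in each panel) of the 10 genes in each of the 36 libraries, by group, with females as circles, males as triangles and the group mean as a bar. *Sost* and *Dkk1* of wild-type mice lie below every saline and ABE library, and the other 8 genes overlap between groups.

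*Wif1* rose less and overlapped. The gene (ENSMUSG00000020218.11, chromosome 10 from 121033960 to 121100650, plus strand) ranged from 2.80 to 8.58 scaled TPM in wild-type with a median of 3.67, from 5.17 to 11.1 in saline with a median of 7.41 and from 5.59 to 10.7 in ABE with a median of 8.18. A single wild-type female, at 8.58, stood above the next wild-type library at 5.06, and without it the wild-type range would not reach the saline range. The log2 fold change was 0.89 (SE 0.143, limma adjusted p = 4.55e-06) for saline versus wild-type and 0.88 (SE 0.143, limma adjusted p = 2.44e-06) for ABE versus wild-type. ABE and saline differed by -0.01 (95% interval -0.31 to 0.28, limma adjusted p = 0.942).

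The SFRP genes were low, and their differences on the log2(scaled TPM + 0.5) scale were below 1. *Sfrp4* (ENSMUSG00000021319.7, chromosome 13 from 19623104 to 19632994, plus strand) had the highest level of them, at 2.28 ± 0.563 scaled TPM in wild-type, 3.13 ± 0.919 in saline and 3.51 ± 1.12 in ABE mice (SD, n = 12). *Sfrp2* (ENSMUSG00000027996.13, chromosome 3 from 83766321 to 83774316, plus strand) averaged 0.562 ± 0.331, 1.05 ± 0.329 and 1.31 ± 0.574, and *Sfrp1* (ENSMUSG00000031548.7, chromosome 8 from 23411502 to 23449632, plus strand) 0.579 ± 0.208, 0.926 ± 0.345 and 0.714 ± 0.214. All 3 overlapped between groups in every comparison. For saline versus wild-type *Sfrp2* rose by 0.58 (SE 0.159, limma adjusted p = 0.0031), *Sfrp1* by 0.39 (SE 0.109, limma adjusted p = 0.0034) and *Sfrp4* by 0.37 (SE 0.142, limma adjusted p = 0.029). For ABE versus wild-type *Sfrp2* rose by 0.78 and *Sfrp4* by 0.50, and voom on recovered reads, which adds no 0.5 TPM, gave *Sfrp2* as 1.09 (SE 0.278) for saline and 1.37 (SE 0.279) for ABE versus wild-type. *Sfrp1*, at 0.17 (95% interval -0.05 to 0.39, limma adjusted p = 0.162), was not called for ABE versus wild-type. *Sfrp1* was the one SFRP gene whose ABE mean lay below its saline mean, by -0.22 (95% interval -0.44 to 0.00323, limma adjusted p = 0.0964). The *Sfrp4* call for saline versus wild-type is lost without wild-type replicate 8 or 11 or saline replicate 9 or 11, with an adjusted p of up to 0.0605.

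*Frzb* (ENSMUSG00000027004.3, chromosome 2 from 80411970 to 80447625, minus strand), a Wnt-binding protein best known from cartilage, was the lowest of the 10 genes. It ranged from 0.230 to 0.787 scaled TPM in wild-type, 0.123 to 0.437 in saline and 0.215 to 1.53 in ABE libraries, with medians of 0.343, 0.261 and 0.506. The groups overlapped, with the upper ABE libraries above all saline libraries. In the fit without a filter ABE exceeded saline by 0.50 (SE 0.128, limma adjusted p = 0.00538), while saline differed from wild-type by -0.25 (SE 0.128, limma adjusted p = 0.144) and ABE from wild-type by 0.24 (SE 0.128, limma adjusted p = 0.129).

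Among the receptors, *Lrp4* followed the antagonists and *Lrp5* and *Lrp6* were highest in ABE mice. *Lrp4* (ENSMUSG00000027253.15, chromosome 2 from 91457511 to 91513779, plus strand) ranged from 2.81 to 9.63 scaled TPM in wild-type, 6.19 to 10.1 in saline and 5.33 to 10.3 in ABE libraries, with medians of 4.25, 7.64 and 7.77. Its log2 fold change was 0.59 (SE 0.144, limma adjusted p = 0.000942) for saline and 0.58 (SE 0.144, limma adjusted p = 0.000609) for ABE versus wild-type, and the *LMNA* G/G groups differed by -0.01 (95% interval -0.30 to 0.28, limma adjusted p = 0.962).

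*Lrp6* (ENSMUSG00000030201.15, chromosome 6 from 134446476 to 134566965, minus strand) ranged from 1.56 to 2.58 scaled TPM in wild-type with a median of 1.97, from 1.86 to 3.06 in saline with a median of 2.24 and from 2.32 to 4.53 in ABE with a median of 3.20. The upper ABE libraries lay above all saline libraries and the lower ones overlapped them. It rose by 0.38 (SE 0.0731, limma adjusted p = 0.000515) in ABE over saline mice and by 0.54 (SE 0.0731, limma adjusted p = 1.37e-07) over wild-type, and the value for saline versus wild-type was 0.16 (SE 0.0731, limma adjusted p = 0.0675), which passes without wild-type replicate 6, saline replicate 4 or ABE replicate 1. *Lrp5* (ENSMUSG00000024913.16, chromosome 19 from 3584828 to 3686564, minus strand) averaged 3.26 ± 0.667 in wild-type, 3.52 ± 0.415 in saline and 4.14 ± 0.603 in ABE mice (SD, n = 12). It rose by 0.31 (SE 0.0829, limma adjusted p = 0.00119) in ABE over wild-type mice, and the value for saline versus wild-type was 0.11 (95% interval -0.06 to 0.28, limma adjusted p = 0.264). Its call for ABE versus saline, at 0.20 (SE 0.0829, limma adjusted p = 0.0434), is lost when any of 13 of the 36 libraries is left out (saline replicates 1, 2, 4, 5, 6, 7 and 10 and ABE replicates 1, 5, 8, 9, 11 and 12), with an adjusted p of up to 0.0854. On the deposited TPM without rescaling, *Lrp5* had a value of -0.12 and *Lrp6* of 0.07 for ABE versus saline, with adjusted p of 0.495 and 0.662. For ABE versus wild-type the values there were -0.18 and 0.07, with adjusted p of 0.272 and 0.627, so that all 4 calls of these genes rest on the rescaling.

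Over the members, 7 of 9 tested were called higher in saline than wild-type mice, against 27.7% of all genes tested, and 0 were called lower, against 24.6%. A further member, *Lrp6*, had an unadjusted p below 0.05, and voom on recovered reads also called 0 lower. For ABE versus wild-type 8 of 9 were called higher, against 35% of all genes, and 0 lower, against 35.2%. On the deposited TPM 3 members, *Sost*, *Dkk1* and *Sfrp2*, were called higher in ABE than wild-type mice. These and *Wif1*, 4 in all, were called higher there in saline than wild-type mice. Of all genes, 1470 for ABE and 1038 for saline were called higher there, where scaled TPM gave 5569 and 4416. With the muscle genes as a covariate 5 members were called higher for ABE versus wild-type. With the osteocyte genes as a covariate 1 member was called higher in each of the comparisons with wild-type. In that fit 3 were called lower in saline than wild-type mice, *Sfrp4* (-0.81), *Lrp4* (-0.88) and *Lrp5* (-0.64). For ABE versus wild-type 1 was called lower there, *Lrp4* (-0.81). The shares of all genes called with these covariates are not given here. In females alone 4 members were called higher for ABE and 3 for saline versus wild-type, the latter against 14.3% of all genes. The share of all genes for ABE in females is not given here, so that its count cannot be read against a background. For ABE versus saline 2 of 9 were called higher, against 23.1% of all genes, and 0 lower, against 25.1%, a share near the background. The median log2 fold change of the 9 genes was 0.58, -0.01 and 0.58 for saline versus wild-type, ABE versus saline and ABE versus wild-type, where the median of all genes tested was 0.02, -0.02 and -0.02. Both comparisons with wild-type share their 12 control libraries and are not independent of each other. The members were chosen with earlier results of these data known, so that their counts are no test against the shares of all genes.

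**Figure D2:**
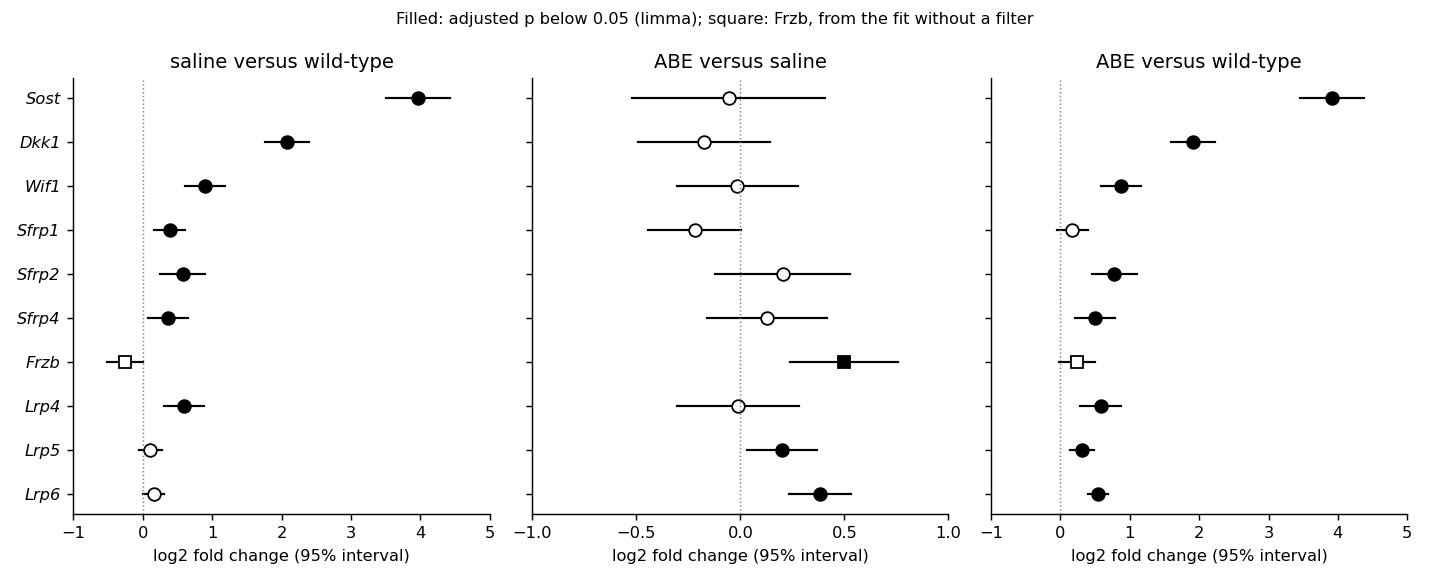
Log2 fold change (point) and its 95% interval (line) of the 10 genes in the 3 comparisons, where filled points have an adjusted p below 0.05 and the square marks *Frzb*, taken from the fit without a filter. The middle panel has a narrower axis. *Sost* stands at 3.97 and 3.91 against wild-type, and the interval of *Sost* for ABE versus saline spans 0.

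The composition of the antagonists shifted with *Sost*. Summed over the 7 antagonists, levels were 17.2 ± 7.13 scaled TPM in wild-type, 142 ± 45.6 in saline and 133 ± 25.3 in ABE mice (SD, n = 12). *Sost* made up 44.7% ± 11.9 of this sum in wild-type libraries, with a range of 27.6% to 62.9%, and 85.8% ± 3.98 in saline and 85.8% ± 2.13 in ABE libraries, with lowest values of 81.7% and 82.9%. The other 6 antagonists together averaged 8.92 ± 2.78, 18.7 ± 3.39 and 18.7 ± 3.67 scaled TPM. The 3 receptors together averaged 10.6 ± 3.18, 13.6 ± 1.35 and 15.1 ± 1.84. The ratio of antagonist to receptor mRNA was therefore 1.59 ± 0.394 in wild-type, 10.6 ± 3.69 in saline and 8.78 ± 1.19 in ABE libraries. These sums describe mRNA per length in whole bone tissue and were not tested.

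Within wild-type mice the order of levels was *Sost*, *Lrp4*, *Wif1*, *Lrp5*, *Sfrp4*, *Lrp6*, *Dkk1*, *Sfrp1*, *Sfrp2* and *Frzb*, where the mean of each gene lay within 1 SD of the gene before it except at the steps from *Lrp5* to *Sfrp4* and from *Lrp6* to *Dkk1*. In saline mice *Sost* exceeded every other member by a wide margin, since its lowest library, at 67.3 scaled TPM, was above the highest value of *Wif1*, the next gene, at 11.1. *Wif1* and *Lrp4* then lay within 1 SD of each other. *Dkk1* moved up from the seventh to the fourth place, after *Sost*, *Wif1* and *Lrp4*.

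Osteocyte markers moved with *Sost*. Of the 8 osteocyte genes tested, 8 were called higher in saline and 8 in ABE than in wild-type mice, against 27.7% and 35% of all genes. *Mepe*, an osteocyte matrix protein, averaged 4.54 ± 2.44, 128 ± 35.8 and 79.3 ± 23.4 scaled TPM in wild-type, saline and ABE mice (SD, n = 12), and *Dmp1*, which regulates mineralization, 11.7 ± 5.93, 76.9 ± 18.7 and 59.6 ± 15.0. *Phex*, a regulator of phosphate, averaged 2.95 ± 1.44, 9.57 ± 1.73 and 8.67 ± 2.05. In bulk tissue, more cells of a type and more RNA per cell cannot be told apart.

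*Sost* was set against the mean of the 9 osteocyte genes in each library. On the log2 scale it exceeded that mean by 1.80 ± 0.517 in wild-type, 4.01 ± 0.431 in saline and 4.05 ± 0.256 in ABE libraries (SD, n = 12), with ranges of 0.96 to 2.58, 3.54 to 4.73 and 3.69 to 4.47, so that wild-type did not overlap the others. The difference between saline and wild-type was 2.21 and that between ABE and wild-type 2.25, and both had a permutation p of 1e-05, the smallest that 100000 resamples can give, and an adjusted p of 1.5e-05 over 6 such tests. ABE and saline differed by 0.05 (permutation adjusted p = 0.897). The osteocyte mean itself was higher by 1.76 in saline and 1.66 in ABE than in wild-type mice. Some of its genes lie near the added 0.5, such as *Fgf23* and *Ptprz1* with wild-type means of 0.129 and 0.444. This limits how far the mean can move, whereas *Sost* lies well above 0.5. Over 7 alternatives, among them 0.1 or 1 added in place of 0.5, the difference between saline and wild-type was 2.06 to 2.28. Of the osteocyte genes tested, *Mepe* alone had a larger value than *Sost* for saline versus wild-type mice, by 4.76 (SE 0.228, limma adjusted p = 1.64e-16), and it was lower in ABE than saline mice, by -0.68 (SE 0.228, limma adjusted p = 0.0146). With the osteocyte mean as a covariate, the *Sost* difference from wild-type was 1.44 in saline and 1.53 in ABE mice (limma adjusted p = 0.00134 and 0.00147), and that of *Dkk1* was 0.31 and 0.24 (limma adjusted p = 0.266 and 0.371), but the covariate does not overlap between the genotypes, so that it cannot be told apart from them.

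*Frzb* was set against 13 cartilage genes in the same way. Cartilage genes were lower than wild-type, with 8 of 9 tested called lower in saline and 8 in ABE mice, against 24.6% and 35.2% of all genes. Their sum ranged from 115 to 296 scaled TPM in wild-type, 21.6 to 67.0 in saline and 42.4 to 143 in ABE libraries. *Prg4*, the lubricin of joint surfaces and the most abundant of them in wild-type mice, averaged 83.2 ± 45.4, 0.609 ± 0.598 and 2.38 ± 2.56 scaled TPM, and *Col11a2*, a cartilage collagen chain, 31.8 ± 14.9, 21.6 ± 7.53 and 24.9 ± 8.81 (SD, n = 12). *Frzb* relative to the cartilage mean was -2.42 ± 0.306 in wild-type, -0.88 ± 0.220 in saline and -0.89 ± 0.334 in ABE libraries on the log2 scale. This relative level was higher by 1.54 for saline and 1.53 for ABE versus wild-type (permutation p = 1e-05, adjusted p = 1.5e-05, for each), and ABE and saline differed by -0.01 (permutation adjusted p = 0.953). *Frzb* lies near the added 0.5 in all groups, which limits how far it can move on this scale. The cartilage mean itself changed by -1.79 in saline and -1.29 in ABE versus wild-type mice, further than *Frzb* could fall. A higher relative level than in wild-type was thus fixed in advance, and its p-values reflect the cartilage genes and say nothing on *Frzb*.

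**Figure D3:**
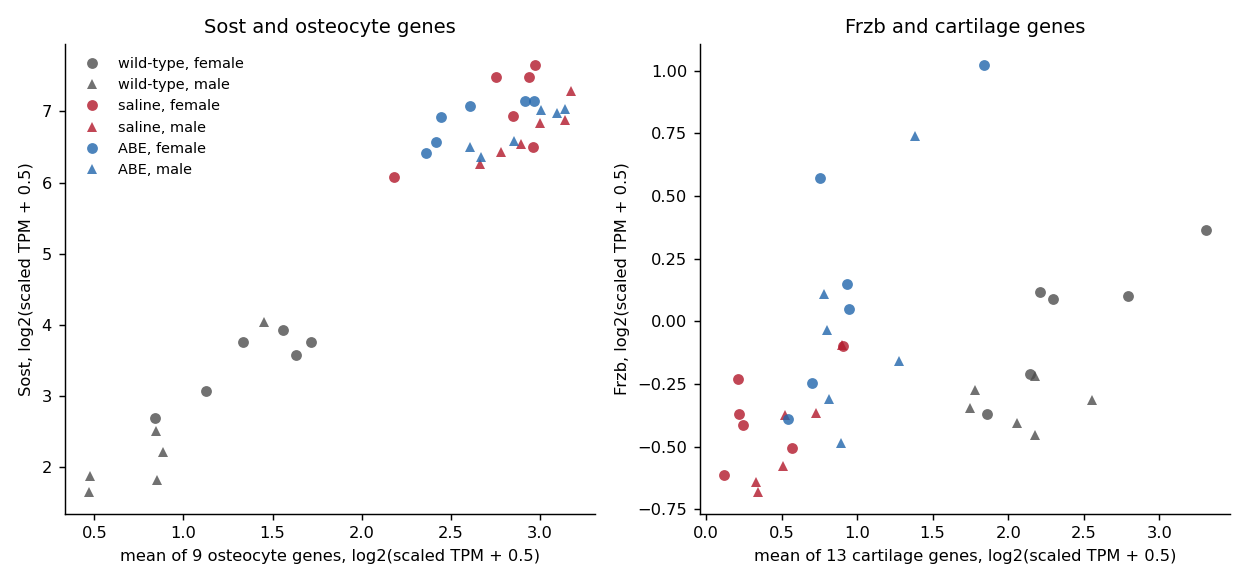
Left, *Sost* against the mean of 9 osteocyte genes, and right, *Frzb* against the mean of 13 cartilage genes, each point a library on log2(scaled TPM + 0.5) axes with groups in color, females as circles and males as triangles. Wild-type libraries lie below the others in both *Sost* and the osteocyte mean, and *Sost* exceeds the osteocyte mean by 1.80 on average in wild-type and 4.01 in saline libraries.

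Other cell types in the tissue also moved with the groups, and their part in the members' differences was tested only by the covariates given here. Skeletal muscle genes were higher in saline (9 of 12 called) and ABE (12 of 12) than in wild-type mice, against 27.7% and 35% of all genes. Their summed levels were 192 to 2892 scaled TPM in wild-type, 325 to 7684 in saline and 1004 to 12079.6 in ABE libraries. *Acta1*, skeletal muscle actin, averaged 313 ± 212, 831 ± 580 and 1754 ± 904 scaled TPM, and *Pvalb*, a calcium buffer of fast fibers, 111 ± 71.0, 268 ± 221 and 632 ± 342 (SD, n = 12). B cell genes were lower than wild-type (7 of 10 called in saline and 8 of 10 in ABE, against 24.6% and 35.2% of all genes). Between ABE and saline mice, 8 of 9 neutrophil, 6 of 8 erythroid, 5 of 5 adipocyte and 6 of 7 osteoclast genes tested were called lower, against 25.1% of all genes. Called higher were 10 of 12 muscle, 5 of 9 cartilage and 5 of 7 tendon and periosteum genes, against 23.1%. All 7 osteoclast genes tested were called higher in saline than wild-type mice, and all 7 tendon and periosteum genes in ABE than wild-type mice. The latter list, which holds *Postn*, summed to between 8.63 and 53.9 scaled TPM in wild-type, 8.80 and 49.2 in saline and 23.6 and 98.3 in ABE libraries, and its part in the values of *Sfrp2* was not tested. With the muscle genes as a covariate the value of *Lrp6* was -0.02 for saline versus wild-type, and the *Lrp5* value for ABE versus saline was 0.11 (limma adjusted p = 0.396). *Sost* and *Dkk1* kept their calls against wild-type with the muscle, the cartilage and the marrow cell covariates.

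The sexes were compared within each group. *Lrp4* was lower in wild-type males, at 2.81 to 4.41 scaled TPM with a median of 3.42, than in wild-type females, at 4.09 to 9.63 with a median of 7.40. The male minus female difference of *Lrp4* was -0.87 (SE 0.157, limma adjusted p = 0.00654), the one member called for sex in wild-type mice, against 0.308% of all genes. *Sost* ranged from 2.61 to 15.9 in wild-type males with a median of 3.61 and from 5.90 to 14.6 in wild-type females with a median of 12.2, and a single male, at 15.9, lay above the females whereas the others were at or below 5.16. That difference was -1.11 (SE 0.305, limma adjusted p = 0.0926). *Sfrp2* differed by -0.69 (SE 0.194, limma adjusted p = 0.0994), with 0.311 ± 0.151 scaled TPM in wild-type males and 0.813 ± 0.258 in wild-type females (SD, n = 6). In *LMNA* G/G mice 0 of 9 members were called for sex by limma, against 0.559% of all genes in saline and 4.79% in ABE mice. In each, 1 member, *Sfrp4*, had an unadjusted p below 0.05, against 2474 of 15933 genes in saline and 3166 in ABE mice. *Sfrp4* averaged 2.44 ± 0.407 in saline females and 3.82 ± 0.735 in saline males, and 2.88 ± 0.953 in ABE females and 4.15 ± 0.934 in ABE males, whereas wild-type females had 2.55 ± 0.566 and wild-type males 2.01 ± 0.446 (SD, n = 6). *Lrp5* likewise averaged 3.63 ± 0.643 in wild-type females and 2.89 ± 0.489 in wild-type males, but 3.25 ± 0.386 in saline females and 3.80 ± 0.216 in saline males.

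The estimated difference of saline from wild-type was larger in males for each of the 9 genes tested, but no member passed the test of that difference. In males 9 of 9 were called higher, against 26.7% of all genes, and in females 3 of 9, namely *Sost*, *Dkk1* and *Wif1*, against 14.3%. *Sost* rose by 4.37 (SE 0.305) in males and 3.57 (SE 0.305) in females, *Lrp4* by 0.99 and 0.20 (SE 0.157 each) and *Sfrp2* by 1.04 and 0.11 (SE 0.194 each). The difference of these changes between the sexes was 0.79 for *Lrp4* (SE 0.222, limma adjusted p = 0.0559), 0.84 for *Sfrp4* (SE 0.240, limma adjusted p = 0.0588), 0.49 for *Lrp5* (SE 0.142, limma adjusted p = 0.0642), 0.93 for *Sfrp2* (SE 0.274, limma adjusted p = 0.0651) and 0.80 for *Sost* (SE 0.432, limma adjusted p = 0.26). By limma 0 of the 9 passed, against 1.03% of all genes. An unadjusted p below 0.05 was held by 6 of the 9, against 3644 of the 15933 genes tested. For ABE versus saline 0 of 9 passed, against 0.0565%, with 0 at an unadjusted p below 0.05, against 2510 genes. Voom on recovered reads passed 3 for saline versus wild-type, against 2.67% of all genes. With array weights, which give less weight to libraries that depart from the fit, 6 of the 9 passed for saline versus wild-type, against 21.6% of all genes, and without wild-type replicate 10, the male with *Sost* at 15.9, 5 did, against 7.71%. Between 1 and 4 passed without wild-type replicate 3 or 5, saline replicate 2, 3, 8 or 10 or ABE replicate 1, 2 or 12, against 1.63% to 4.24% of all genes.

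**Figure D4:**
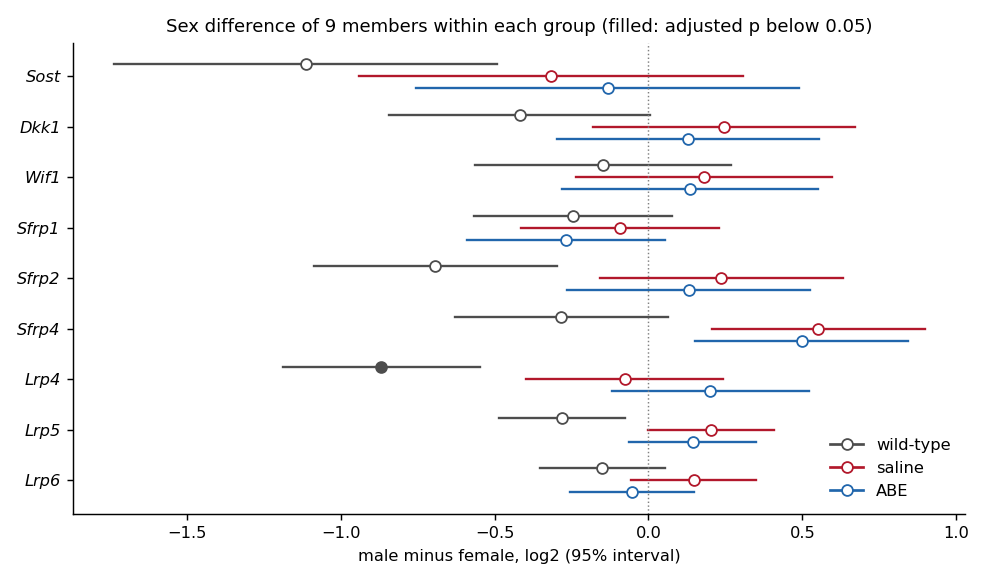
Male minus female difference on the log2 scale (point) with its 95% interval (line) for 9 genes in wild-type, saline and ABE mice, filled where the adjusted p is below 0.05. The wild-type points of all 9 genes lie below 0, and the filled one is *Lrp4* at -0.87.

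Some members varied together among mice of the same group and sex. After the mean of each group and sex was subtracted, 11 of 36 pairs of members correlated over the 36 libraries at an adjusted p below 0.05, all positively, with Pearson's r from -0.08 to 0.76 over the 36 pairs. *Sost* and *Dkk1* had r = 0.76 and Spearman's rho = 0.77 (permutation p = 1e-05 for both, adjusted p = 0.00036 and 0.00012), r = 0.72 without the 2 libraries farthest in *Sost*, and r = 0.67, 0.90 and 0.89 within wild-type, saline and ABE mice. *Wif1* and *Lrp4* had r = 0.70 and rho = 0.76 (permutation p = 3e-05 and 1e-05, adjusted p = 0.00036 and 0.00012), r = 0.74 without the 2 farthest libraries, and r = 0.65, 0.86 and 0.70 within the groups. *Wif1* and *Lrp5* had r = 0.68 and rho = 0.74 (permutation p = 4e-05 and 1e-05, adjusted p = 0.00036 and 0.00012), r = 0.68 without the 2 farthest, and r = 0.80, 0.68 and 0.52 within the groups.

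Other pairs were uneven among the groups. *Dkk1* and *Wif1* had r = 0.71 and rho = 0.70 over all libraries (permutation p = 4e-05 and 2e-05, adjusted p = 0.00036 and 0.00018) and r = 0.70 without the 2 farthest, but r = 0.93 in wild-type, 0.30 in saline and 0.79 in ABE mice. *Sfrp2* and *Sfrp4* had r = 0.59 and rho = 0.48 (permutation p = 0.00049 and 0.0065, adjusted p = 0.0029 and 0.029), r = 0.46 without the 2 farthest, and 0.44, 0.23 and 0.80 within the groups. *Sost* and *Sfrp2*, with r = -0.01 and rho = -0.11, did not pass (permutation p = 0.93 and 0.53, adjusted p = 0.96 and 0.65). For this pair r was -0.08 without the 2 farthest, and 0.30 in wild-type, -0.49 in saline and 0.07 in ABE mice. All libraries share the scaling, and the part of the mix of cells in these relations was not tested.

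The genes closest to each member over the same 36 libraries were taken by Pearson's r after the same subtraction, as a description without a test. They came from 2320 genes with a mean of at least 5 scaled TPM over all 36 libraries. For *Sost* they were *Mepe* (r = 0.84), *Ccdc194* (r = 0.83), *Ackr3* (r = 0.78), *Ndrg1* (r = 0.77) and *Dmp1* (r = 0.77). For *Dkk1* they were *Ccdc194* (r = 0.88) and *Ccn4* (r = 0.85), and for *Wif1* *Phex* (r = 0.88) and *Sp7* (r = 0.87), the osteoblast transcription factor osterix. *Ccdc194* averaged 1.60 ± 0.730 scaled TPM in wild-type, 9.03 ± 1.79 in saline and 8.31 ± 2.04 in ABE mice (SD, n = 12). It thus passed the filter through the *LMNA* G/G groups, as did others, among them *Ackr3*, *Ndrg1* and *Mepe*, with wild-type means of 1.59, 3.58 and 4.54. The pool of candidates therefore favors genes that are high in *LMNA* G/G mice. For *Sfrp1* the closest were the secreted proteins *Fstl1* (r = 0.92) and *Igfbp4* (r = 0.90). For *Sfrp2* they were the matrix genes *Col6a1* (r = 0.75) and *Postn* (r = 0.73), and for *Sfrp4* *Vim* (r = 0.79) and *Gpx3* (r = 0.78). For the receptors they were *Lifr* (r = 0.90) and *Sema7a* (r = 0.86) for *Lrp4*, and *Myo10* (r = 0.90) and *Ptprs* (r = 0.88) for *Lrp5*, and *Msrb3* (r = 0.95) was among those for *Lrp6*.

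The rest of the pathway was read from lists, whose counts stand beside these shares of all genes tested. For saline versus wild-type 27.7% were called higher and 24.6% lower. For ABE versus saline the shares were 23.1% and 25.1%, and for ABE versus wild-type 35% and 35.2%. Of 19 Wnt ligands, 4 were high enough to test, and 3 of them were called higher in saline than wild-type mice, 2 in ABE than saline mice and 4 in ABE than wild-type mice, with 0 called lower in any of the 3. *Wnt5b* averaged 0.976 ± 0.394 scaled TPM in wild-type, 2.98 ± 0.613 in saline and 3.42 ± 0.761 in ABE mice (SD, n = 12), and rose by 1.26 (SE 0.125) in saline over wild-type. *Wnt10b*, a ligand that favors bone formation, averaged 0.897 ± 0.363, 1.42 ± 0.257 and 2.47 ± 0.958 and rose again from saline to ABE mice, by 0.58 (SE 0.138, limma adjusted p = 0.00177). Of 9 Frizzleds and other receptors tested, 4 were called higher in saline and 8 in ABE than in wild-type mice, and 4 in ABE than saline mice. *Ryk*, a Wnt receptor of the kinase type, rose by 1.25 (SE 0.103) in saline over wild-type, and *Fzd4* and *Fzd7* rose by 0.63 and 0.55 (SE 0.158 and 0.150) in ABE over saline.

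Of the other Wnt antagonists, 5 of 14 listed were high enough to test. In saline versus wild-type mice 0 of them were called by limma and 1, *Igfbp4*, had an unadjusted p below 0.05. Among the members 6 of 6 antagonists tested were called higher, but they were chosen with earlier results known, so these counts cannot be compared. Below the filter, *Notum* averaged 0.316 in wild-type and 0.589 scaled TPM in saline mice, and *Draxin* 0.315 and 0.136. In ABE versus saline mice 3 of the 5 were called higher and 1 lower. *Dkk3* averaged 1.86 ± 0.944, 1.84 ± 0.578 and 3.98 ± 1.80 scaled TPM in wild-type, saline and ABE mice (SD, n = 12), and *Kremen1*, a receptor for DKK1, 1.36 ± 0.314, 1.57 ± 0.364 and 2.81 ± 0.841. *Igfbp4* was lower in ABE than saline mice, by -0.50 (SE 0.157, limma adjusted p = 0.0107).

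Downstream, 9 of 18 signal transduction genes were called higher and 5 lower in saline than wild-type mice, among them *Ctnnb1*, which encodes β-catenin, at 16.6 ± 2.19 and 25.9 ± 4.22 scaled TPM (SD, n = 12). Of 9 Wnt target genes tested, 6 were called higher in saline than wild-type mice, against 27.7% of all genes, with a median of 0.54. None was called lower, against 24.6%, but the filter acts on the mean over all groups and can drop genes that are low in *LMNA* G/G mice. The target *Lef1* was below the filter, with 0.628 ± 0.0984, 0.393 ± 0.120 and 0.310 ± 0.0911 scaled TPM in wild-type, saline and ABE mice (SD, n = 12). In saline over wild-type, *Bambi*, a decoy receptor of the TGF-β family, rose by 1.48 (SE 0.107). *Tnfrsf11b*, the decoy receptor for the osteoclast factor RANKL, rose by 1.18 (SE 0.117) and *Ccnd1*, a cyclin, by 0.54 (SE 0.1001). In ABE versus saline mice 1 target was called higher and 2 lower. The one that rose was *Axin2*, a feedback inhibitor and direct β-catenin target, by 0.43 (SE 0.0885, limma adjusted p = 0.000765), with means of 0.429 ± 0.110, 0.582 ± 0.182 and 0.967 ± 0.301 scaled TPM in wild-type, saline and ABE mice (SD, n = 12), and is named here after its values were seen. Of those that fell, *Myc* changed by -0.38 (SE 0.0931, limma adjusted p = 0.00233).

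Of 16 genes tested that are known to regulate *Sost*, 9 were called higher and 1 lower in saline than wild-type mice, against 27.7% and 24.6% of all genes. *Mef2c*, a transcription factor that acts on the distal *Sost* enhancer, averaged 2.61 ± 0.736 scaled TPM in wild-type, 5.64 ± 1.55 in saline and 8.84 ± 2.90 in ABE mice (SD, n = 12), and rose by 0.97 (SE 0.151) in saline over wild-type and by 0.58 (SE 0.151, limma adjusted p = 0.00303) in ABE over saline mice. The *Sost* difference between ABE and saline was -0.05, as given above. *Vdr*, the vitamin D receptor, rose by 1.02 (SE 0.154), *Mef2a* by 0.83 (SE 0.0688) and *Pth1r*, the parathyroid hormone receptor, by 0.50 (SE 0.140) in saline over wild-type. The class II deacetylases *Hdac4* and *Hdac5*, which restrain MEF2 factors, rose by 0.27 (SE 0.0577) and 0.36 (SE 0.0695) in ABE over saline mice. For saline versus wild-type *Hdac4* rose by 0.18 (SE 0.0577, limma adjusted p = 0.00821) and *Hdac5* differed by -0.12 (SE 0.0695, limma adjusted p = 0.164). Whether any of these regulators acted on *Sost* here was not tested. Muscle also expresses *Mef2c*, and the muscle genes that rose between these groups are given above.

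**Figure D5:**
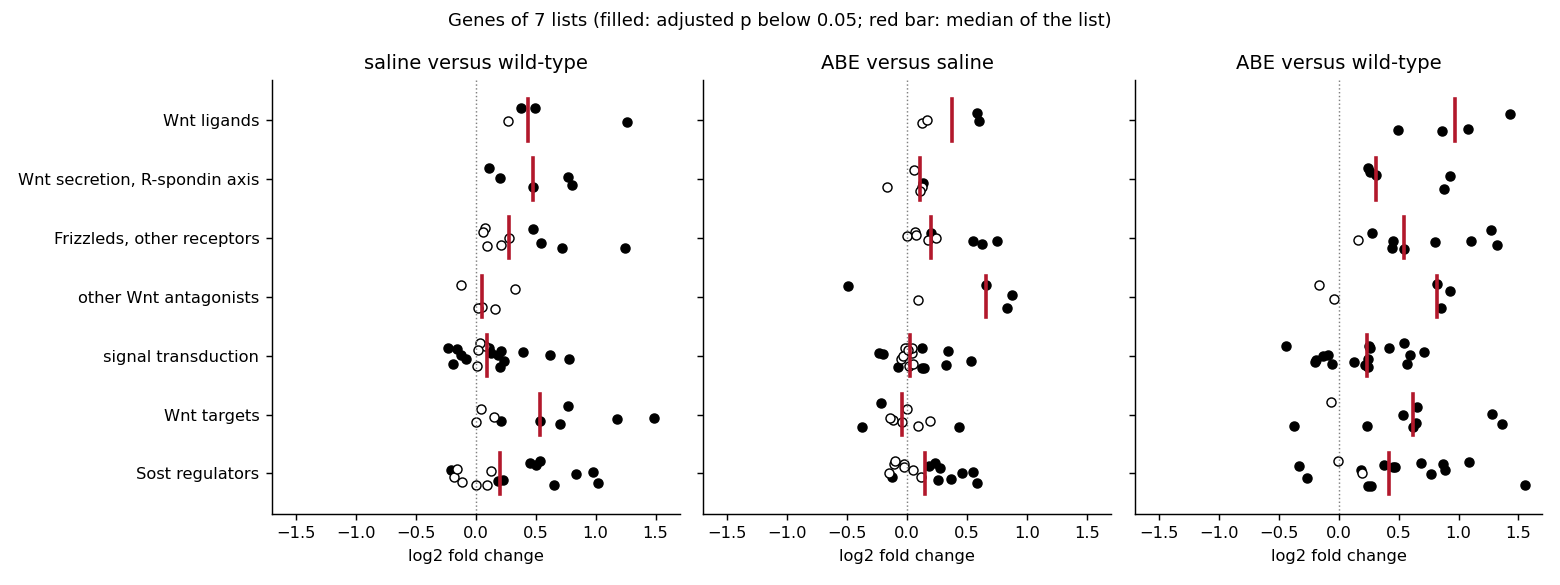
Log2 fold change of each tested gene of 7 lists around the members in the 3 comparisons, filled where the adjusted p is below 0.05, with the list median as a red bar. The 5 other antagonists above the filter show 0 calls for saline versus wild-type. Wnt targets above the filter lie mostly above 0 there, with a median of 0.54.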

How the data were processed

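Poly(A) RNA of 36 tibiae was sequenced from stranded libraries. Per the labels and the paper's methods, the authors aligned reads to GRCm38 with STAR and counted them on GENCODE M24 genes, and the submitters' processing notes give STAR 2.73a. The deposited values are TPM, computed by the authors in a way not given in the sources used here. Recovered with gene length less 218 bp, 100% of values were whole reads within 0.01, and strand was kept by the kit. The table also holds gene length, which the authors deposited with it.

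Each library was divided by its median ratio to the geometric mean of 23632 genes above 0 in every library. log2(scaled TPM + 0.5) of 15933 genes with a mean of at least 0.5 scaled TPM was fitted with limma 3.58.1 in R 4.3.3, with sex as a covariate and all 36 libraries in 1 fit. The authors' own test, DESeq2, works on counts, whereas the deposited values are TPM, and it was not run on the recovered reads. Interactions with sex had a fit of their own. Permutation tests drew 100000 resamples, two-sided, in Python 3.11.15. Where a symbol repeats, the row with the highest mean was taken. In simulated data, limma called 88 of 110 genes changed by 1 and 63 of 90 changed by 0.5 (log2) for saline versus wild-type among 15933 genes.

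The members and gene lists were chosen with earlier results of these data known. Named were all members, per list of Wnt genes and *Sost* regulators and per comparison up to 6 called genes with the largest change and a mean of at least 1 scaled TPM, of which the text gives a part, *Dmp1*, *Mepe* and *Phex*, the 2 most abundant genes of cell type lists discussed, and the genes closest to each member, of which 1 is not reported here. Animals are taken as replicates, numbered in the order of the labels. 0 pairs of libraries were identical. Alternatives were the deposited TPM, other scalings, pseudocounts and filters, voom on recovered reads, array weights, no sex covariate, cell type covariates, the compared groups only, either sex alone and each library left out.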

Additional observations from a re-analysis of the deposited data

How the results depend on the processing

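*Sost* kept its direction and its call against wild-type under all alternatives run, with values from 1.44 to 4.37 in saline and 1.53 to 4.40 in ABE mice, and *Dkk1* lost its calls with the osteocyte covariate alone. Genes called higher against lower depended on the scaling: 4416 and 3915 for saline versus wild-type in scaled TPM, 1038 and 3704 in deposited TPM, where the median gene stood at -0.13, and 2060 and 6435 with factors from long genes, where it stood at -0.11. For ABE versus saline they were 3688 and 3995, 531 and 6574 (median -0.27) and 5382 and 2470, and for ABE versus wild-type 5569 and 5608, 1470 and 9458 (median -0.42) and 4787 and 6404. Fewest reads lay behind *Frzb*, with 117 to 711 a library, and *Sfrp2*, with 82 to 1415, and the added 0.5 limits the changes of the lowest genes. No paired analysis was possible because replicate numbers follow the order of the labels and no label ties animals of different groups. The causes of the changes below were not tested.

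With deposited TPM, members called higher were 4 (saline versus wild-type), 0 (ABE versus saline) and 3 (ABE versus wild-type), with 1 lower in ABE versus saline. Signs turned for *Lrp5* in saline versus wild-type (-0.0583), for *Sfrp2* (-0.0143), *Sfrp4* (-0.15) and *Lrp5* (-0.12) in ABE versus saline, and for *Sfrp1* (-0.11) and *Lrp5* (-0.18) in ABE versus wild-type, and *Sost* relative to osteocyte genes was -0.0403 in ABE versus saline. With factors from long genes *Lrp5* was -0.0438 in saline versus wild-type, and *Sost* 0.0504, *Wif1* 0.0844 and *Lrp4* 0.0889 in ABE versus saline. Over 17 alternatives that keep each library's turn aside, *Sost* in ABE versus saline ranged from -0.44 to 0.0914, with a lowest limma adjusted p of 0.158. In deposited TPM *Sost* averaged 127 ± 40.5 in saline and 97.0 ± 36.3 in ABE mice (SD, n = 12). Array weights gave *Wif1* 0.000534 and *Lrp4* 0.0243 in ABE versus saline, and 6 members with a sex difference of saline versus wild-type, where voom gave 3 and a pseudocount of 0.1 gave 1. That pseudocount also turned *Frzb* relative to cartilage genes in ABE versus saline to 0.20. A filter at 5 scaled TPM, which left 3 members, gave 3, 0 and 3 called higher, and quantile normalization gave 1 in ABE versus saline.

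Covariates also moved values. With the osteocyte covariate 1 member was called higher and 3 lower in saline, and 1 higher and 1 lower in ABE, versus wild-type. In saline versus wild-type *Dkk1* was 0.31, *Wif1* -0.27, *Sfrp2* -0.26, *Sfrp4* -0.81, *Lrp4* -0.88, *Lrp5* -0.64 and *Lrp6* -0.20. In ABE versus wild-type *Dkk1* was 0.24, *Wif1* -0.22, *Sfrp2* -0.00544, *Sfrp4* -0.62, *Lrp4* -0.81 and *Lrp5* -0.39, and in ABE versus saline *Sost* was 0.0914, *Wif1* 0.0525 and *Lrp4* 0.075. With the muscle covariate 1 member was called higher in ABE versus saline and 5 in ABE versus wild-type, *Lrp6* was -0.0228 in saline versus wild-type and *Wif1* 0.0211 in ABE versus saline. With the cartilage covariate 1 was called in ABE versus saline, where *Sfrp2* was -0.0297 and *Sfrp4* -0.0147, and with the B cell, neutrophil and erythroid covariates 1 was called.

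In males alone 1 member was called higher in ABE versus saline, where *Sost* was 0.0376 and *Lrp4* 0.13. In females alone 3, 1 and 4 were called higher in the 3 comparisons, with *Sfrp4* -0.0495 and *Lrp5* -0.13 in saline versus wild-type and *Wif1* 0.00838 in ABE versus saline. Leaving out each library in turn, ABE versus saline ranged from -0.15 to 0.00908 for *Sost*, -0.0648 to 0.0274 for *Wif1*, -0.0495 to 0.0469 for *Lrp4* and -0.0712 to 0.0432 for *Frzb* relative to cartilage genes. The members called higher in ABE versus saline ranged from 1 to 2, and those with a sex difference of saline versus wild-type from 0 to 5.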
